A study of Macaca fascicularis with 48 samples.

Results

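Messenger RNA of lumbar dorsal root ganglia was compared between cynomolgus monkeys (Macaca fascicularis) given the compound GS-8873 and control animals. The submitters name GS-8873 as a compound that lowers the transcripts of hepatitis B virus. It was given by oral gavage over 13 weeks at 6 mg/kg/day, or at 0 mg/kg/day in the controls. The lumbar ganglia gave 8 of the 48 libraries of the series, chosen by their titles alone, with 4 control and 4 treated libraries and 2 males and 2 females in each group. Each library came from a separate animal. The sources used here give neither the age of the animals nor the ganglion level beyond lumbar, and the single dose above 0 allows no dose comparison.

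A dorsal root ganglion holds the cell bodies of the sensory neurons that carry touch, position, temperature and pain from the body to the spinal cord. The neurons are wrapped by satellite glia, and their axons run with Schwann cells, blood vessels, fibroblasts and resident macrophages. Lumbar ganglia serve the legs and hold neurons with some of the longest axons of the body. Large-diameter neurons fill these axons with neurofilaments, polymers of a light, a medium and a heavy chain that set axon calibre, and supply them by kinesin and dynein motors running on microtubules. In bulk tissue, fewer cells of a type and less RNA per cell cannot be told apart.

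The 8 libraries held 41031268 to 49835269 counts each, and carried the markers of the labelled tissue. SCN10A, a sodium channel of sensory neurons, ran from 187 to 583 CPM (read counts scaled to the library total), while MOG, a myelin gene of the central nervous system, was at most 0.664 CPM. HOXC10, a gene of posterior body segments, ran from 2.99 to 12.8 CPM in lumbar ganglia and from 0 to 0.0406 CPM in the 8 cervical ganglion libraries of the same study. Treated replicate 1 stood apart. Its 15 sensory neuron markers summed to 5317 CPM, against 8285 to 10740 CPM in the other treated libraries and 9520 to 10960 CPM in the control libraries. In the same library the myelinating Schwann cell markers (10170 CPM), fibroblast and perineurial markers (8312 CPM) and endothelial markers (1500 CPM) were the highest of the 8. Skeletal muscle markers summed to 538 CPM in control replicate 1, 976 CPM in control replicate 4 and 440 CPM in treated replicate 1, and to between 39.5 and 151 CPM in the other libraries. Many results that rest on treated replicate 1 are given without it as well, or with the level of that library beside the others.

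Genes called lower in treated ganglia included 3 of 4 neurofilament genes, 16 of 38 synaptic vesicle genes, 7 of 19 calmodulin and CaM kinase genes, 5 of 15 kinesins, 10 of 35 lysosomal genes and 8 of 32 potassium and HCN channel genes. Fewer genes rose, and CD5L, a macrophage protein, rose most. Of 14267 genes tested, 612 passed an adjusted p of 0.05 in the edgeR quasi-likelihood test, which is 4.29% of the genes. The calls were uneven in direction, with 521 genes lower in treated animals (3.65%) and 91 higher (0.638%). A fall of more than 2-fold was called for 104 genes and a rise of more than 2-fold for 6. Among called genes the median change was 0.73 on the log2 scale for falls and 0.50 for rises, and the median over all genes tested was 0.05. Of all genes tested 8039 had a positive and 6228 a negative log2 fold change, to be read beside the sign counts of gene lists below. The control and treated values did not overlap for 2387 genes (16.7%), of which 1334 were lower (9.35%) and 1053 higher (7.38%), and 597 of the 612 called genes were among these.

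The number of calls depended on single libraries and on the scaling. Without control replicate 1, 2, 3 or 4 the count was 32, 70, 18 and 303, and without treated replicate 3 or 4 it was 173 and 200. Without treated replicate 1 it was 670, which held 451 of the 521 lower and 53 of the 91 higher genes. Without the 3 libraries that held over 400 CPM of skeletal muscle markers, which leaves 2 control and 3 treated libraries, edgeR called 0 genes, with 1976 at an unadjusted p under 0.05 against 3225 in all 8 libraries. Treated libraries had trimmed-mean (TMM) scaling factors of 1.05 to 1.10 and control libraries 0.911 to 0.978. With total counts in place of TMM factors the median over all genes moved from 0.05 to 0.24, and the calls turned to 1475 higher and 368 lower, so that only 20% were lower against 85.1% with TMM. Under that scaling all 521 genes called lower kept a negative sign and 362 of them passed, and all 91 genes called higher passed. DESeq2 called 541 genes higher and 1197 lower, of which 68.9% were lower, and these held 520 of the 521 and 90 of the 91. In simulated counts with known changes DESeq2 made 60 false calls and edgeR 11. Those counts held no sex effect and no library that stood apart, so the real numbers can differ.

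**Figure D1:**
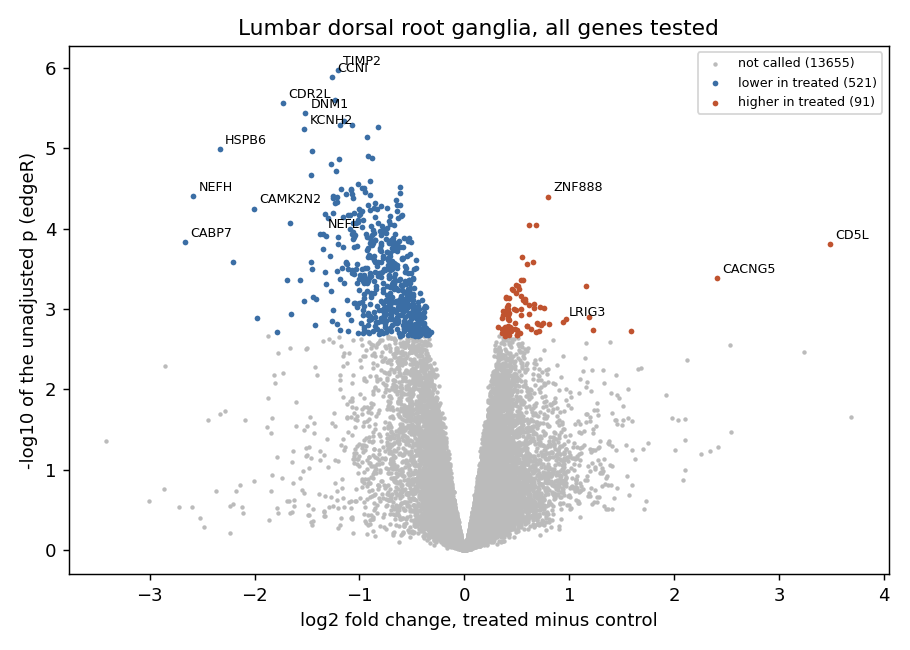
Each point is 1 of the 14267 genes tested in lumbar ganglia, with the log2 fold change of treated minus control animals on the x axis and the -log10 of the unadjusted edgeR p on the y axis. Genes called at an adjusted p of 0.05 are blue where lower (521) and red where higher (91), and the called genes lie mostly on the left.

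The 3 neurofilament chain genes fell from a high level. NEFH encodes the heavy chain (chromosome 10, 21996204 to 22006561 on the Macaca_fascicularis 5.0 build) and stood at 6538, 3258, 3804 and 3813 CPM in the control libraries and 588, 496, 963 and 952 CPM in the treated libraries, where CPM of single genes here and in what follows are scaled by TMM. All treated libraries lay far below all control libraries, and control replicate 1 was the highest of its group. The fitted level in treated animals was 16.7% of control (log2 fold change -2.58 ± 0.32, edgeR adjusted p = 0.0154). The light chain NEFL (chromosome 8, 25331891 to 25338676) was at 12210, 9272, 8834 and 8162 CPM in the control libraries and 3369, 3248, 3922 and 4570 CPM in the treated libraries. It fell to 39.2% of control with no overlap (-1.35 ± 0.19, edgeR adjusted p = 0.0172). The neighbouring medium chain gene NEFM (chromosome 8, 25293255 to 25300624) stood at 17110, 12550, 10490 and 10350 CPM in the control libraries and 6112, 4086, 5849 and 7150 CPM in the treated libraries and fell to 46.3% (-1.11 ± 0.24, edgeR adjusted p = 0.0472).

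Of the 4 tested members of the neurofilament list, these 3 passed lower, against 3.65% of all genes tested. The fourth was INA, alpha-internexin, an intermediate filament of small and developing neurons, at 313, 409.8, 461 and 370.4 CPM in the control libraries and 169, 537, 450.1 and 306 CPM in the treated libraries. Its groups overlapped, and its log2 fold change was -0.09 (edgeR adjusted p = 0.905). The mean log2 CPM of the 4 genes was 11.69 to 12.15 in the control libraries and 10.22 to 10.79 in the treated libraries. Without control replicate 3 none of the 3 passed, with the log2 fold change of NEFH still at -2.73.

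**Figure D2:**
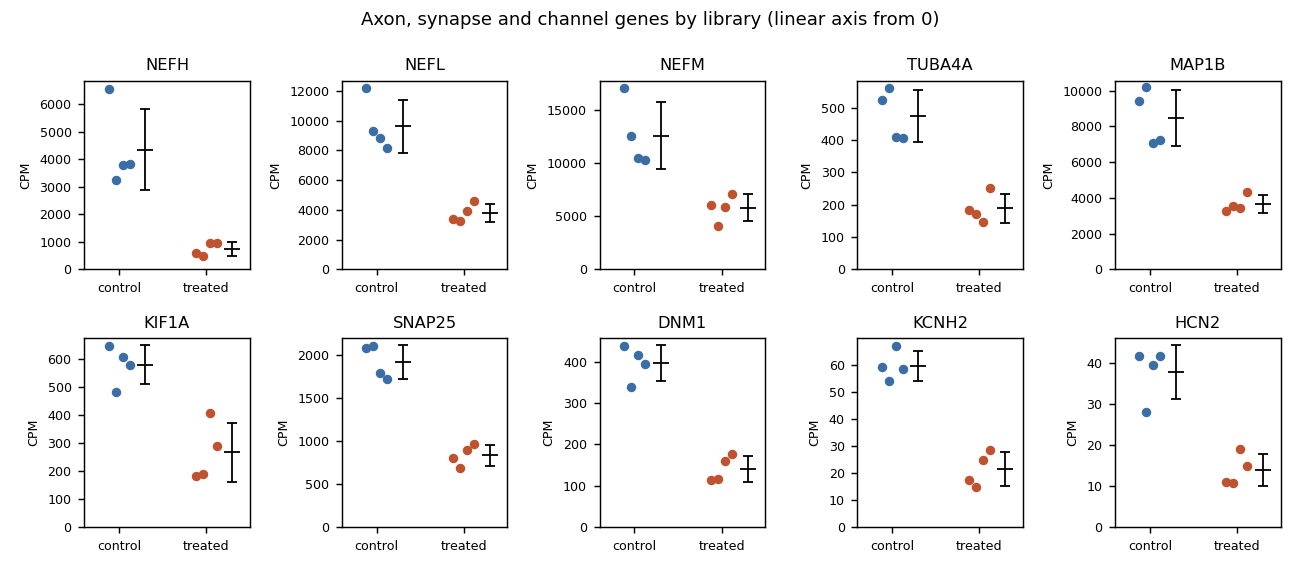
TMM-scaled CPM on linear axes from 0 for NEFH, NEFL, NEFM, TUBA4A, MAP1B, KIF1A, SNAP25, DNM1, KCNH2 and HCN2 in lumbar ganglia, with 1 point per library (control blue, treated red, 4 each) and bars for the group mean and SD. In each of the 10 panels the 4 treated libraries lie below the 4 control libraries.

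Of 18 microtubule genes tested, 3 passed and all 3 were lower, with a median log2 fold change of -0.59 over the 18. TUBA4A, an alpha-tubulin of mature neurons and muscle, was at 524, 562, 409.5 and 405.6 CPM in the control libraries and 185, 171, 148 and 252 CPM in the treated libraries, and fell to 40.1% (-1.32 ± 0.19, edgeR adjusted p = 0.0172). MAP1B (chromosome 6, 70253955 to 70357894), a microtubule-binding protein of axons and among the most abundant transcripts of the tissue, was at 9442, 10180, 7073 and 7213 CPM in the control libraries and 3268, 3568, 3416 and 4352 CPM in the treated libraries (-1.20 ± 0.18, edgeR adjusted p = 0.0172). Its relative MAP1A, found in mature neurons, fell to 44.4% (-1.17 ± 0.19, edgeR adjusted p = 0.0219). TUBB3, the neuronal beta-tubulin, was at 2746, 2332, 2513 and 2001 CPM in the control libraries and 879.8, 1546, 1518 and 1304 CPM in the treated libraries, did not overlap and missed the threshold (-0.87 ± 0.21, edgeR adjusted p = 0.0563). MAP2, a protein of dendrites and cell bodies, showed -0.04 and the tubulin-folding factor TBCA 0.03. Reads of tubulin genes can be shared between near-identical copies, so the values of single tubulins are uncertain to that extent.

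Among kinesin motors, which carry cargo toward the axon tip, 5 of 15 passed and all 5 were lower, with 14 of 15 log2 fold changes below 0 and a median of -0.55. KIF1A, the motor of synaptic vesicle precursors, stood at 646, 483, 610.1 and 581 CPM in the control libraries and 183, 188, 406.4 and 290.1 CPM in the treated libraries (-1.19 ± 0.21, edgeR adjusted p = 0.0249). KIF3C was at 1072, 1016, 925 and 902 CPM in the control libraries and 365, 465, 528 and 531 CPM in the treated libraries, with a wide gap between the groups (-1.06 ± 0.15, edgeR adjusted p = 0.0160). KIF21A (-0.93 ± 0.14, edgeR adjusted p = 0.0172) and the kinesin light chain KLC2 (-1.02 ± 0.14, edgeR adjusted p = 0.0160) also fell, and the kinesin-associated protein KIFAP3 fell to 64.04% of control (log2 fold change -0.64). The main axonal motor heavy chain KIF5A had -0.69 (edgeR adjusted p = 0.102), and the ubiquitous KIF5B -0.13 and KIF3B 0.00.

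Dynein and dynactin, which carry cargo back to the cell body, gave 2 passing genes of 16, both lower, with 13 negative and a median of -0.36. DYNLT3, a dynein light chain, was at 413, 356, 353 and 300.4 CPM in the control libraries and 148, 231, 179 and 201 CPM in the treated libraries (-0.90 ± 0.15, edgeR adjusted p = 0.0241), and the dynein regulator NDEL1 fell to 62.2% (-0.69 ± 0.12, edgeR adjusted p = 0.0261). The heavy chain DYNC1H1 was at 1748, 1974, 1616 and 1521 CPM in the control libraries and 898, 1270, 1140 and 1181 CPM in the treated libraries, without overlap and just outside the threshold (-0.61 ± 0.15, edgeR adjusted p = 0.0622), and DYNC1I1, a neuronal intermediate chain, was likewise outside it (-0.84 ± 0.20, edgeR adjusted p = 0.0578). The node and paranode genes NFASC (-0.64), CNTNAP1 (-0.57) and ANK3 (-0.22) did not pass, and the median over 12 spectrins, ankyrins and node of Ranvier genes was -0.47. Without any one of control replicates 1, 2 and 3 none of the microtubule, kinesin and dynein members passed, and without treated replicate 1 the passing numbers were 6, 7 and 5.

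Synaptic vesicle genes held the most called members of the 60 gene lists read, with 16 of 38 lower and none higher, 35 of 38 negative and a median log2 fold change of -0.62. Most of these proteins act where a vesicle is released at the terminal and taken up again, and sensory neurons make them in the ganglion and ship them along the axon. DNM1 (chromosome 15, 10950115 to 11003466), the neuronal dynamin that pinches off endocytic vesicles, was at 439, 338, 416 and 395 CPM in the control libraries and 114, 115, 159 and 176 CPM in the treated libraries. It fell to 34.9% (-1.52 ± 0.14, edgeR adjusted p = 0.00826), and no treated library came near the control libraries. AP2A1, a subunit of the clathrin adaptor at the plasma membrane, was at 179.6, 150.2, 176 and 175 CPM in the control libraries and 71.4, 71.05, 97.97 and 85.8 CPM in the treated libraries (-1.07 ± 0.10, edgeR adjusted p = 0.00826). Its paralog AP2A2 (-0.78) and the clathrin heavy chain CLTC (-0.58) also fell, and the clathrin light chains CLTA (-0.14) and CLTB (-0.34) did not pass.

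On the release side, SNAP25, a membrane-bound SNARE protein, was at 2078, 2097, 1781 and 1714 CPM in the control libraries and 796, 678, 891 and 958 CPM in the treated libraries (-1.21 ± 0.15, edgeR adjusted p = 0.0154). CPLX1, a complexin that holds SNARE complexes ready, was at 221, 182, 264 and 223 CPM in the control libraries and 90.4, 74.8, 141 and 109 CPM in the treated libraries (-1.12 ± 0.14, edgeR adjusted p = 0.0154). The further calls included RAB3A (-1.04), NSF (-0.96), VAMP1 (-1.32), SYN1 (-1.45), CPLX2 (-0.90), SV2B (-0.78), DNM3 (-0.78) and SLC17A7 (-1.25), the vesicular glutamate transporter. Members of the same families did not move together in every case. VAMP2 had -0.58 (edgeR adjusted p = 0.0565), SYT1, the calcium sensor of fast release, 0.00, the glutamate transporter SLC17A6 -0.33, and the active zone protein PCLO -0.09. The mean log2 CPM of the 38 genes was 7.23 to 7.41 in the control libraries and 6.33 to 6.85 in the treated libraries. Leaving out control replicate 1 or 3 left 2 of them past the threshold, and leaving out treated replicate 1 gave 19.

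Potassium and HCN channel genes, which set resting potential and firing, gave 8 calls of 32, all lower, with 26 negative and a median of -0.36. KCNH2, a channel of the ether-a-go-go family, was at 58.9, 53.8, 67.04 and 58.3 CPM in the control libraries and 17.4, 14.8, 24.6 and 28.3 CPM in the treated libraries. It fell to 34.8% with a wide gap between the groups (-1.52 ± 0.15, edgeR adjusted p = 0.00826). HCN2, a hyperpolarization-activated pacemaker channel, was at 41.5, 27.9, 39.3 and 41.7 CPM in the control libraries and 10.98, 10.8, 19.03 and 14.8 CPM in the treated libraries (-1.47 ± 0.17, edgeR adjusted p = 0.0154). KCND1 (-0.85 ± 0.13, edgeR adjusted p = 0.0172) and KCNN1, a calcium-activated channel at about 5 CPM in control ganglia (-1.66 ± 0.34, edgeR adjusted p = 0.0382), also fell. Further calls were KCNAB2 (-0.97), KCNK3 (-1.02) and KCNC1 (-0.75). The leak channel KCNK2 had 0.79 and KCNA2, of the juxtaparanode, -0.08, and neither passed. Without control replicate 3, 1 of the 8 passed.

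The 14 sodium channel genes had a median log2 fold change of -0.18. The pore-forming channels of sensory neurons, SCN9A (-0.33), SCN10A (-0.28) and SCN11A (-0.18), did not pass. SCN2A had higher values in all treated libraries, at 6.98, 8.54, 8.16 and 9.04 CPM in the control libraries and 10.4, 10.9, 11.8 and 12.8 CPM in the treated libraries, and missed the threshold (0.49 ± 0.13, edgeR adjusted p = 0.0843). Of 22 calcium channel, pump and release channel genes edgeR called 0, though 8 had an unadjusted p under 0.05 (7 lower, 1 higher), and DESeq2 called 5, all lower. Their median was -0.09.

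Calmodulin and the enzymes it activates fell in part, with 7 of 19 lower, none higher and a median of -0.45. CALM3, a calmodulin gene, was at 1369, 1323, 1292 and 1215 CPM in the control libraries and 600.4, 671, 796 and 788 CPM in the treated libraries (-0.87 ± 0.12, edgeR adjusted p = 0.0170), and CALM2 (-0.58) fell as well, with reads that near-identical copies could share. CAMKK1, a kinase upstream of the CaM kinases, was at 177, 127, 196 and 142 CPM in the control libraries and 63.01, 73.03, 82.03 and 99.2 CPM in the treated libraries (-1.03 ± 0.16, edgeR adjusted p = 0.0173). CAMK2G (-1.03 ± 0.17, edgeR adjusted p = 0.0219), the catalytic subunit PPP3CB of the phosphatase calcineurin (-0.74 ± 0.12, edgeR adjusted p = 0.0183) and the calcium sensor NCALD (-0.95) also passed. Of the other CaM kinase II subunits, CAMK2A had -0.66, CAMK2B -0.45 and CAMK2D -0.22, with none past the threshold. CAMK2N2, an inhibitor of CaM kinase II, was among the 10 largest falls, at 6.48, 4.92, 9.18 and 8.04 CPM in the control libraries and 0.851, 1.73, 2.54 and 2.16 CPM in the treated libraries (-2.005 ± 0.26, edgeR adjusted p = 0.0154). CABP7, a calcium-binding relative of calmodulin, had the largest fall among the called genes, from 20.6, 17.5, 16.5 and 10.7 CPM in the control libraries to 2.75, 1.27, 4.26 and 2.08 CPM in the treated libraries (-2.67 ± 0.40, edgeR adjusted p = 0.0172). Both genes were picked among those without overlap between the groups. None of the 7 listed genes passed without control replicate 1, 2 or 3.

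Of the genes that mark sensory neurons as a class, 13.3% were called lower, against 3.65% of all genes tested. Of 15 tested, SNAP25 and UCHL1 were called lower and the others were not, and the median was -0.16, or 0.03 without treated replicate 1. UCHL1, an abundant neuronal deubiquitinase, stood at 3432, 2903, 3170 and 2843 CPM in the control libraries and 1133, 1909, 1661 and 1854 CPM in the treated libraries (-0.92 ± 0.19, edgeR adjusted p = 0.0378). The transcription factor ISL1 was at 57.8, 61.4, 72.1 and 57.5 CPM in the control libraries and 47.9, 108, 88.4 and 86.6 CPM in the treated libraries and overlapped (0.41 ± 0.23, edgeR adjusted p = 0.326). The neuronal splicing factor RBFOX3 (-0.56 ± 0.27, edgeR adjusted p = 0.269) and the sensory neuron factor DRGX (-0.56 ± 0.26, edgeR adjusted p = 0.242) were lowest in treated replicate 1, at 8.03 and 12.2 CPM. AVIL (0.05), ELAVL4 (0.07) and SNCG (-0.11) lay near 0. The summed sensory neuron markers of that library were the lowest of the 8. Without it, 2 of the sensory neuron markers were called lower and 1 higher. In the same fit 2 neurofilament, 7 potassium and HCN channel and 6 calmodulin and CaM kinase genes were called lower. The numbers for microtubule, kinesin, dynein and synaptic vesicle genes stand beside those groups above.

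Genes of small-diameter pain and temperature neurons gave 0 calls of 19 in edgeR, with 2 at an unadjusted p under 0.05, both lower, and 2 calls in DESeq2. Their median was -0.21, and 0.03 without treated replicate 1. P2RX3, an ATP-gated channel (-0.78 ± 0.24, edgeR adjusted p = 0.112), RET, the co-receptor for GDNF family ligands (-0.71 ± 0.32, edgeR adjusted p = 0.238), and its partner GFRA3 (-0.73 ± 0.32, edgeR adjusted p = 0.233) did not pass. SCN10A was at 401.5, 572, 474 and 386 CPM in the control libraries and 174, 555, 430.2 and 347 CPM in the treated libraries and overlapped. The heat-gated channel TRPV1 was at 169.9, 93.6, 158 and 99.1 CPM in the control libraries and 47.7, 139, 121 and 143 CPM in the treated libraries (-0.23 ± 0.35, edgeR adjusted p = 0.747), and CALCA, the gene of the neuropeptide CGRP, was at 219.9, 294, 190.3 and 169 CPM in the control libraries and 128, 304, 214 and 104 CPM in the treated libraries (-0.21 ± 0.30, edgeR adjusted p = 0.726). In each of these 3 genes at least 1 treated library lay above the control mean.

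Genes associated with large-diameter and touch neurons gave 5 calls of 20, all lower, with 19 of 20 negative and a median of -0.47, which was -0.43 without treated replicate 1. HAPLN4, a link protein of the extracellular matrix around large neurons, was at 131, 66.8, 73.4 and 117 CPM in the control libraries and 31.7, 18.8, 31.4 and 39.9 CPM in the treated libraries (-1.69 ± 0.29, edgeR adjusted p = 0.0249). SPP1, osteopontin, a secreted protein found in large sensory neurons and also in macrophages, was at 2587, 2438, 1737 and 1722 CPM in the control libraries and 978, 409.9, 645 and 784 CPM in the treated libraries (-1.57 ± 0.27, edgeR adjusted p = 0.0249). SLC17A7 stood at 246, 164, 168 and 146 CPM in the control libraries and 73.4, 49.4, 85.9 and 98.6 CPM in the treated libraries (-1.25 ± 0.25, edgeR adjusted p = 0.0361). The acid-sensing channel ASIC1 (-0.47 ± 0.09, edgeR adjusted p = 0.0369) and the fast potassium channel KCNC1 (-0.75) also fell. The classical markers of this class did not pass. PVALB, a calcium buffer of proprioceptors, was at 124, 143, 122 and 105 CPM in the control libraries and 133, 54.3, 104 and 112 CPM in the treated libraries (-0.29 ± 0.26, edgeR adjusted p = 0.539), and NTRK3, the receptor for neurotrophin-3, at 26.5, 30.8, 18.2 and 23.4 CPM in the control libraries and 37.9, 17.5, 18.8 and 22.8 CPM in the treated libraries (-0.03 ± 0.23, edgeR adjusted p = 0.961). The touch channel PIEZO2 had 0.29 and RUNX3 -0.60. None of the 5 passed without control replicate 1, 2 or 3 or treated replicate 3 or 4.

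Of 16 neurotrophin and GDNF family ligands and receptors tested, 1 passed. It was NGFR, the low-affinity receptor for all neurotrophins, carried by neurons and by glia, at 560.2, 631, 833 and 852 CPM in the control libraries and 280.4, 349.9, 390 and 322 CPM in the treated libraries (-1.08 ± 0.13, edgeR adjusted p = 0.0154). The separation was complete, and NGFR passed in 16 of 21 alternative settings. NTRK2 (-0.24), GFRA1 (-0.21) and GFRA2 (-0.06) did not pass.

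Genes that rise in sensory neurons after axon injury gave 0 calls of 22 in edgeR, with 5 at an unadjusted p under 0.05 (4 lower, 1 higher). The 4 lower were GADD45A, TUBB3, HSPB1 and STMN4, each of which also belongs to the apoptosis, microtubule or heat shock list. DESeq2 called 4 lower and 1 higher, and limma voom called 1, lower. ATF3, the usual sign of an injured sensory neuron, was at 5.94, 32.8, 13.3 and 6.62 CPM in the control libraries and 16.3, 7.42, 6.99 and 5.04 CPM in the treated libraries, with the highest value in a control library (-0.72 ± 0.52, edgeR adjusted p = 0.449). SOX11 (-0.35 ± 0.49, edgeR adjusted p = 0.716), the neuropeptide galanin GAL (-0.21 ± 0.42, edgeR adjusted p = 0.798) and the growth cone protein GAP43 (-0.04 ± 0.22, edgeR adjusted p = 0.939) overlapped between groups. GADD45A, a stress-induced gene, was at 43.9, 43.04, 36.9 and 28.4 CPM in the control libraries and 23.4, 29.2, 25.9 and 20.1 CPM in the treated libraries and just missed the threshold (-0.62 ± 0.14, edgeR adjusted p = 0.0514). The median of the 22 was -0.15. In the 20 apoptosis and p53 target genes edgeR made 0 calls, with 5 at an unadjusted p under 0.05 (3 lower, 2 higher) and a median of 0.14. DESeq2 and limma voom each called 1, lower. The mean log2 CPM of the 20 genes was highest in treated replicate 1, at 4.21. It was 3.70 to 4.01 in the other treated libraries and 3.83 to 3.97 in the control libraries.

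Of 22 genes of programmed axon degeneration and NAD metabolism, 2 were called lower and none higher, with a median of -0.24. MAPK10, the neuronal JNK kinase, was at 327, 335, 288 and 291 CPM in the control libraries and 182, 233, 219 and 218 CPM in the treated libraries (-0.54 ± 0.11, edgeR adjusted p = 0.0354), and SKP1, a ubiquitin ligase subunit, at 272, 263, 247 and 235 CPM in the control libraries and 158, 192, 170.2 and 182 CPM in the treated libraries (-0.53 ± 0.09, edgeR adjusted p = 0.0249). SARM1, the NAD-cleaving enzyme that carries out axon degeneration, had -0.87 (edgeR adjusted p = 0.109), and NMNAT2, the enzyme that delays it, -0.27 (edgeR adjusted p = 0.388). Neither called gene passed without control replicate 1, 2 or 3 or treated replicate 3 or 4.

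Glial markers gave 1 call in edgeR, where 4.29% of all genes tested were called, and no difference from that share was tested. In 13 satellite glia genes edgeR made 0 calls, with 1 at an unadjusted p under 0.05, and the median was 0.07. That gene was ERBB3, a neuregulin receptor, at 148, 181, 235 and 255 CPM in the control libraries and 252, 296, 320 and 266 CPM in the treated libraries (0.50 ± 0.14, edgeR adjusted p = 0.0872), which DESeq2 called higher. FABP7, which marks satellite glia, was at 90.4, 95.2, 139 and 82.3 CPM in the control libraries and 105, 132, 121 and 94.3 CPM in the treated libraries (0.16 ± 0.19, edgeR adjusted p = 0.654), and the calcium-binding protein S100B at 557, 348, 429 and 485 CPM in the control libraries and 556, 306, 310.4 and 332 CPM in the treated libraries (-0.29 ± 0.23, edgeR adjusted p = 0.485). In 17 myelinating Schwann cell genes edgeR, DESeq2 and limma voom made 0 calls, with 0 at an unadjusted p under 0.05. Their median was 0.00, and -0.45 without treated replicate 1. PMP22, a protein of peripheral myelin, was at 1720, 1222, 1578 and 2041 CPM in the control libraries and 1997, 1453, 1313 and 1573 CPM in the treated libraries (-0.05 ± 0.20, edgeR adjusted p = 0.914). Of 14 genes of non-myelinating and repair Schwann cells, NGFR alone was called.

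Macrophage markers were mostly higher in treated libraries without passing. Of 21 tested, 20 had a positive log2 fold change and edgeR, DESeq2 and limma voom called 0, with 2 at an unadjusted p under 0.05. The median was 0.35, and 0.05 without treated replicate 1. C1QA, a complement component of resident macrophages, was at 62.8, 77.2, 70.7 and 92.5 CPM in the control libraries and 133, 88.3, 101 and 108 CPM in the treated libraries (0.50 ± 0.16, edgeR adjusted p = 0.119), and the adaptor TYROBP at 12.2, 12.7, 12.8 and 21.6 CPM in the control libraries and 24.4, 18.9, 20.97 and 21.9 CPM in the treated libraries (0.56 ± 0.20, edgeR adjusted p = 0.147). CD68 was at 16.9, 17.6, 14.2 and 31.6 CPM in the control libraries and 24.4, 18.8, 21.3 and 24.2 CPM in the treated libraries (0.16 ± 0.24, edgeR adjusted p = 0.743). Summed over the 21 markers, control libraries ran from 1284 to 2176 CPM and treated libraries from 1326 to 2404 CPM. Of 22 endothelial and pericyte genes 1 was called, ACKR1, an atypical chemokine receptor of venules, at 50.3, 31.2, 52.3 and 40.97 CPM in the control libraries and 17.7, 10.8, 17.4 and 29.2 CPM in the treated libraries (-1.26 ± 0.26, edgeR adjusted p = 0.0418), and the median was 0.17. ACKR1 did not pass without any one of the control libraries or without treated replicate 2 or 3. The mean log2 CPM of the 22 endothelial and pericyte genes was highest in treated replicate 1, at 4.90. It was 4.00 to 4.54 in the other treated libraries and 3.93 to 4.71 in the control libraries. Fibroblast and perineurial genes gave 0 calls of 16 in all 3 tools, with 1 at an unadjusted p under 0.05, and a median of 0.30, or -0.13 without treated replicate 1. The 30 interferon-stimulated genes gave 0 calls in edgeR, with 2 at an unadjusted p under 0.05 (1 lower, 1 higher), and 1 call in DESeq2, lower. Their mean log2 CPM was 7.13 in treated replicate 1, 4.29 to 4.47 in the other treated libraries and 4.14 to 4.98 in the control libraries, and their median log2 fold change went from 0.77 to -0.14 without that library.

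**Figure D3:**
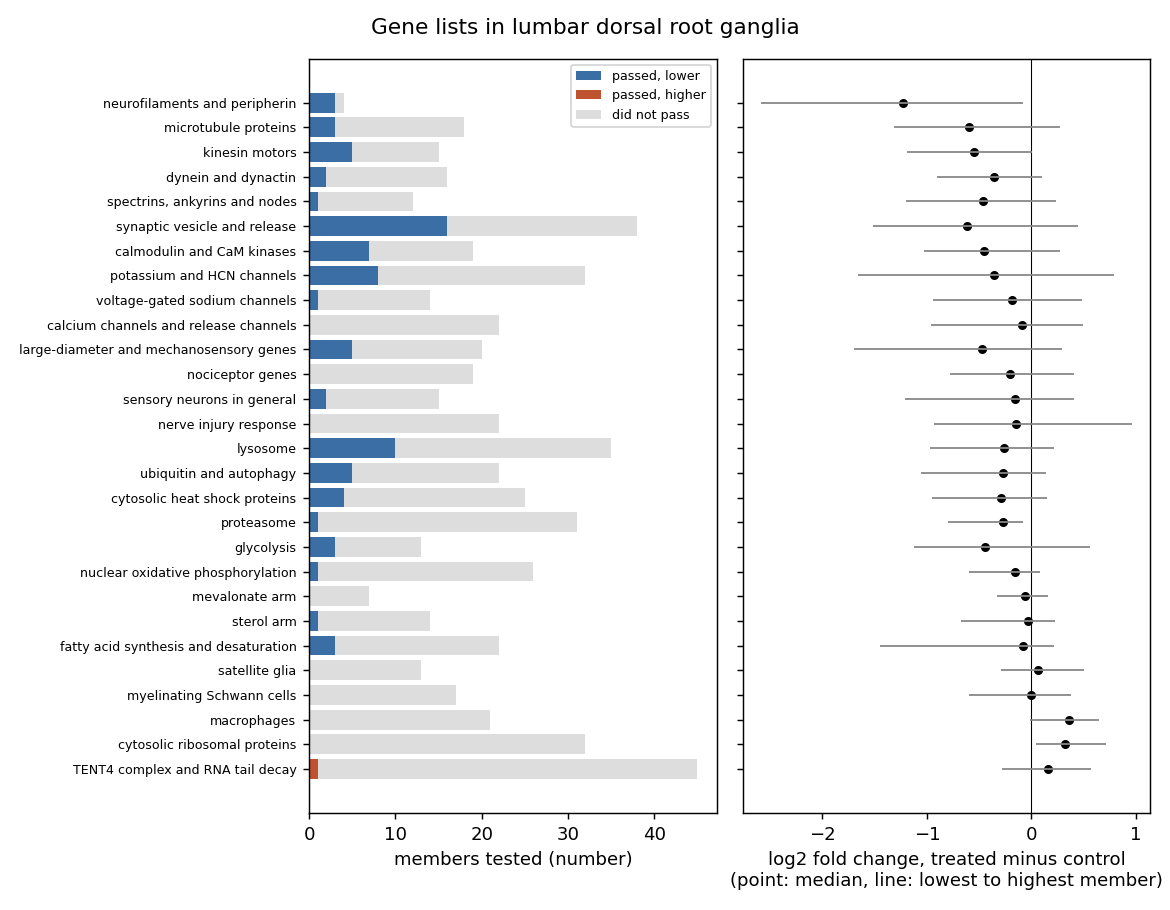
Left, the number of tested members of 28 gene lists in lumbar ganglia, split into those that passed lower (blue), passed higher (red) and did not pass (grey) at an edgeR adjusted p of 0.05. Right, the median log2 fold change of treated minus control animals over the tested members (point) with the lowest and highest member (line). The synaptic vesicle list holds the most calls (16), and the neurofilament list has the lowest median (-1.23).

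Lysosomal genes fell in part, with 10 of 35 lower, none higher and a median of -0.26. CTSD, the aspartic protease cathepsin D, was at 790.3, 632, 896 and 826 CPM in the control libraries and 418, 376, 454 and 429 CPM in the treated libraries (-0.90 ± 0.11, edgeR adjusted p = 0.0154). PSAP, the precursor of the saposins that help break down sphingolipids, was at 3303, 2732, 2851 and 2855 CPM in the control libraries and 1289, 1544, 1711 and 1582 CPM in the treated libraries (-0.94 ± 0.14, edgeR adjusted p = 0.0172). LAMP1, a lysosomal membrane protein, was at 203, 170.1, 203 and 213 CPM in the control libraries and 108, 107, 141 and 118 CPM in the treated libraries (-0.74 ± 0.10, edgeR adjusted p = 0.0154). The groups did not overlap for any of the 3. Of the proton pump, ATP6V0A1 (-0.79 ± 0.11, edgeR adjusted p = 0.0172), ATP6AP1 (-0.65), ATP6V1B2 (-0.65) and ATP6V0C (-0.97) fell, and of the hydrolases ASAH1 (-0.72), CTSB (-0.71) and GAA (-0.56). Other hydrolases lay near 0, among them HEXA (0.08) and LIPA (0.05). Without control replicate 1 or 3 none passed, and without treated replicate 1 there were 11.

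Of 22 ubiquitin and autophagy genes 5 were lower and none higher, with a median of -0.28. MAP1LC3B, which is attached to growing autophagosomes, was at 877, 731, 705 and 669 CPM in the control libraries and 278, 372, 372 and 414 CPM in the treated libraries (-1.06 ± 0.15, edgeR adjusted p = 0.0172). GABARAPL1, of the same family, was at 863, 820.5, 762 and 681 CPM in the control libraries and 381, 451, 464 and 518 CPM in the treated libraries (-0.79 ± 0.13, edgeR adjusted p = 0.0230). UBB, a polyubiquitin gene with near-identical copies (-0.58 ± 0.12, edgeR adjusted p = 0.0361), the ubiquitin-activating enzyme UBA1 (-0.42) and UCHL1 were the other calls. SQSTM1, an autophagy receptor, had -0.30 and ULK1 -0.03. In the proteasome 31 of 31 subunits had a negative log2 fold change, with a median of -0.27, and 1 passed, PSMD2, at 760.1, 785, 667 and 639.9 CPM in the control libraries and 343, 418, 423 and 457 CPM in the treated libraries (-0.80 ± 0.13, edgeR adjusted p = 0.0206). In edgeR 19 of the 31 had an unadjusted p under 0.05, and DESeq2 called 10. With total counts in place of TMM the median of the proteasome list was -0.08, and that of all genes 0.24. Without control replicate 1, 2 or 3 or treated replicate 3 none of the ubiquitin, autophagy or proteasome genes passed.

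Chaperones of the cytosol gave 4 calls of 25, all lower, with a median of -0.29. HSP90AA1, the inducible cytosolic HSP90, was at 6189, 6763, 5602 and 5001 CPM in the control libraries and 2701, 3522, 2774 and 3470 CPM in the treated libraries (-0.91 ± 0.16, edgeR adjusted p = 0.0249). HSPB8 (-0.77 ± 0.11, edgeR adjusted p = 0.0172), BAG3, its partner in chaperone-assisted autophagy (-0.95 ± 0.17, edgeR adjusted p = 0.0258), and the HSP70 cochaperone DNAJA4 (-0.85 ± 0.18, edgeR adjusted p = 0.0427) were the others. HSPA8 had -0.36, HSPH1 -0.17 and the stress factor HSF1 -0.09. HSPB6, a small heat shock protein outside this list, was among the 10 largest falls, at 300.1, 182, 275 and 291 CPM in the control libraries and 51.6, 28.98, 67.8 and 66.1 CPM in the treated libraries (-2.33 ± 0.24, edgeR adjusted p = 0.0119). HSPB6 is also abundant in muscle, and the summed skeletal muscle markers ran from 39.5 to 976 CPM in the control libraries and from 63.6 to 440 CPM in the treated libraries. Without the 3 libraries with over 400 CPM of these markers its log2 fold change was -2.32 (edgeR adjusted p = 0.0776). In the 15 chaperonin and tubulin-folding genes 1 passed, PFDN1, a prefoldin subunit (-0.70 ± 0.11, edgeR adjusted p = 0.0187). The 4 calls of the heat shock list and PFDN1 were lost without control replicate 1, 2 or 3.

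Endoplasmic reticulum stress genes were not called. In edgeR 0 of 19 passed (3 had an unadjusted p under 0.05, all lower), and in DESeq2 2 did. HYOU1, a chaperone of the endoplasmic reticulum, was at 169.8, 160.1, 154 and 137 CPM in the control libraries and 129.6, 109.6, 126 and 116 CPM in the treated libraries (-0.36 ± 0.09, edgeR adjusted p = 0.0736), while the main chaperone HSPA5 had -0.03 and DNAJB9 -0.05. Among 24 targets of the integrated stress response 3 were lower, all of them aminoacyl-tRNA synthetases, which load tRNA with amino acids. GARS was at 249, 256, 205 and 209 CPM in the control libraries and 124, 142, 142 and 154 CPM in the treated libraries (-0.70 ± 0.11, edgeR adjusted p = 0.0197), AARS at 69.01% of control (-0.54 ± 0.10, edgeR adjusted p = 0.0278) and WARS at 56.7% (-0.82 ± 0.16, edgeR adjusted p = 0.0361). The stress factors ATF4 (0.02), DDIT3 (-0.23) and ASNS (-0.27) did not pass. The 3 calls were lost without control replicate 1, 2 or 3 or treated replicate 3.

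Lipid genes showed few calls and no common direction for sterol synthesis. In the 7 genes of the mevalonate arm 0 passed in edgeR (1 had an unadjusted p under 0.05) and 1 in DESeq2, both lower, and the median was -0.06. HMGCS1, an early step of cholesterol synthesis, was at 232, 297, 272 and 246 CPM in the control libraries and 217, 246, 307 and 276 CPM in the treated libraries (-0.01 ± 0.13, edgeR adjusted p = 0.967). The median over the 14 genes of the sterol arm was -0.03. SREBF2, the transcription factor that drives cholesterol synthesis, fell to 70.6% (-0.50 ± 0.10, edgeR adjusted p = 0.0382). ABCA1, which exports cholesterol from cells, rose, from 71.1, 77.2, 71.6 and 78.6 CPM in the control libraries to 132, 104, 96.3 and 114 CPM in the treated libraries (0.58 ± 0.11, edgeR adjusted p = 0.0325). SREBF2 and ABCA1 did not pass without any one of the control libraries or without treated replicate 3 or 4.

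In fatty acid synthesis 3 of 22 fell. CYB5R3, a reductase that supplies electrons to desaturases, was at 382, 324, 452 and 382 CPM in the control libraries and 106, 155, 169.6 and 133 CPM in the treated libraries (-1.45 ± 0.15, edgeR adjusted p = 0.0119) and passed in 18 of 21 alternative settings. ACLY, which makes cytosolic acetyl-CoA, was at 633, 629, 603 and 522 CPM in the control libraries and 287, 324, 393 and 428 CPM in the treated libraries (-0.75 ± 0.14, edgeR adjusted p = 0.0330). FASN, the fatty acid synthase, was at 126, 72.2, 188 and 151 CPM in the control libraries and 45.7, 57.7, 89.2 and 63.5 CPM in the treated libraries, with an overlap between the groups (-1.05 ± 0.20, edgeR adjusted p = 0.0338). Of 22 genes of fatty acid oxidation CPT1A, which lets long-chain fatty acids into mitochondria, was called, at 438, 423, 420 and 347 CPM in the control libraries and 179, 226, 257 and 235 CPM in the treated libraries (-0.86 ± 0.14, edgeR adjusted p = 0.0197). CPT1C, a form found in neurons, had -0.40 (edgeR adjusted p = 0.147). Without control replicate 1 or 3 or treated replicate 3, 1 of the 3 synthesis genes passed, and CPT1A did not pass without control replicate 1, 2 or 3 or treated replicate 4.

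Of 13 glycolysis genes 3 were lower and none higher, with a median of -0.45. PFKP, a phosphofructokinase, was at 434, 398, 420.2 and 397 CPM in the control libraries and 115, 248, 200.3 and 195 CPM in the treated libraries (-1.12 ± 0.21, edgeR adjusted p = 0.0330), PGAM1 at 221, 236, 225 and 213 CPM in the control libraries and 142, 135, 143 and 159 CPM in the treated libraries (-0.63 ± 0.08, edgeR adjusted p = 0.0154), and PFKM at 67.8% of control (-0.56 ± 0.12, edgeR adjusted p = 0.0393). The neuronal enolase ENO2 had -0.53 (edgeR adjusted p = 0.0914) and GAPDH -0.33. Among 26 nuclear genes of oxidative phosphorylation 1 passed, ATP5F1B, the catalytic subunit of ATP synthase, at 685, 662, 610.5 and 565 CPM in the control libraries and 391, 383, 426 and 472 CPM in the treated libraries (-0.59 ± 0.12, edgeR adjusted p = 0.0338), with a median of -0.15. In the 13 protein genes of the mitochondrial genome 0 passed in edgeR (1 had an unadjusted p under 0.05) and 1, lower, in DESeq2. The mitochondrial genome took 8.31 to 11.4% of all counts over the 8 libraries. The glycolysis and ATP5F1B calls were lost without control replicate 1, 2 or 3, and that of ATP5F1B also without treated replicate 2, 3 or 4.

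Genes of the TENT4 complex were read because some compounds that lower hepatitis B virus transcripts are known to act through the poly(A) polymerases TENT4A and TENT4B, which add mixed tails to viral RNA. TENT4A was at 11.7, 12.9, 12.1 and 13.2 CPM in the control libraries and 16.2, 14.7, 17.1 and 13.2 CPM in the treated libraries, and TENT4B at 12.4, 13.2, 9.86 and 10.2 CPM in the control libraries and 13.8, 14.9, 14.96 and 17.04 CPM in the treated libraries. In neither gene did a treated library lie below a control library, and neither passed (0.30 ± 0.13, edgeR adjusted p = 0.223 and 0.42 ± 0.14, edgeR adjusted p = 0.142). ZCCHC14, the adaptor that brings TENT4 to viral RNA, was at 30.8, 26.1, 31.99 and 32.4 CPM in the control libraries and 37.1, 37.2, 38.4 and 30.1 CPM in the treated libraries and overlapped (0.24 ± 0.12, edgeR adjusted p = 0.286). Of 45 genes of the complex and of RNA tail removal and decay, 39 were positive with a median of 0.16, and 1 passed, the nuclear exonuclease XRN2, at 60.6, 62.7, 63.7 and 60.1 CPM in the control libraries and 84.1, 81.4, 78.6 and 75.02 CPM in the treated libraries (0.37 ± 0.08, edgeR adjusted p = 0.0382). XRN2 did not pass without any one of the control libraries or without treated replicate 2, 3 or 4. DESeq2 called 5 of the 45 higher. With total counts in place of TMM edgeR called 18 of the 45 higher, under a scaling that raised the median of all genes to 0.24.

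Cytosolic ribosomal protein genes were positive in 32 of 32, with a median of 0.32 and 17 at an unadjusted p under 0.05, and edgeR, DESeq2 and limma voom called 0. With total counts in place of TMM edgeR called 13 of them higher. Their share of all counts was 0.544 to 0.653% in the control libraries and 0.718 to 1.06% in the treated libraries, without overlap and highest in treated replicate 1. The median was 0.18 without that library. Of 6 AHR targets and partners, ARNT, the partner of the aryl hydrocarbon receptor, was higher, at 45.1, 51.4, 51.1 and 47.5 CPM in the control libraries and 78.2, 66.01, 68.7 and 66.6 CPM in the treated libraries (0.52 ± 0.09, edgeR adjusted p = 0.0278), while the induced target CYP1B1 had 0.41 and did not pass. Of 21 antioxidant targets of NRF2, 2 were lower. They were the ferritin heavy chain FTH1, a gene with many copies, at 943, 671, 912 and 948 CPM in the control libraries and 598, 326, 434 and 479.5 CPM in the treated libraries (-0.92 ± 0.20, edgeR adjusted p = 0.0481), and SRXN1 (-0.60 ± 0.13, edgeR adjusted p = 0.0496), while HMOX1 had -0.45 and GCLM -0.33. ARNT did not pass without any one of the control libraries or without treated replicate 3 or 4. Both NRF2 target calls were lost without any one of the control libraries or without treated replicate 2 or 3.

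Some of the clearest separations lay outside the axon groups. TIMP2 (chromosome 16, 76201952 to 76226242), a secreted inhibitor of matrix metalloproteinases, had the smallest p of all genes. It stood at 124, 115, 125 and 127 CPM in the control libraries and 49.2, 47.6, 63.8 and 52.7 CPM in the treated libraries, and the spread within each group was small against the gap (-1.21 ± 0.09, edgeR adjusted p = 0.00826). CCNI (chromosome 5, 57424237 to 57453477), cyclin I, a cyclin of non-dividing cells including neurons, was at 296, 276, 266 and 268 CPM in the control libraries and 103, 107, 131 and 122 CPM in the treated libraries (-1.26 ± 0.10, edgeR adjusted p = 0.00826). CADM3 (chromosome 1, 92505626 to 92523290), an adhesion molecule that links axons and glia, was at 1738, 1716, 1795 and 1634 CPM in the control libraries and 515, 853, 789 and 731 CPM in the treated libraries (-1.26 ± 0.17, edgeR adjusted p = 0.0154). CDR2L, named as a paralog of an antigen of cerebellar degeneration, was at 177, 135, 134 and 124 CPM in the control libraries and 37.6, 40.1, 51.4 and 43.1 CPM in the treated libraries (-1.73 ± 0.15, edgeR adjusted p = 0.00826). TIMP2 passed in 18 of 21 alternative settings, CCNI in 19, CDR2L in 19 and CADM3 in 15.

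The lists these genes belong to were otherwise mixed. Of 21 metalloproteinases and inhibitors the second call was ADAM23, a neuronal surface protein (-0.83 ± 0.18, edgeR adjusted p = 0.0461), and the median was 0.08. Of 19 adhesion genes the second call was NRXN2, a neurexin of the presynaptic membrane (-0.97 ± 0.16, edgeR adjusted p = 0.0219), while CADM1 had 0.14. Of 11 genes of the cyclin I and CDK5 group the others called were CDK16 (-0.72 ± 0.12, edgeR adjusted p = 0.0239) and CDK5, a kinase of neurons (-0.67 ± 0.12, edgeR adjusted p = 0.0249). CDK16 and CDK5 did not pass without control replicate 1, 2 or 3 or treated replicate 3 or 4, NRXN2 not without control replicate 1, 2 or 3 or treated replicate 4, and ADAM23 passed without treated replicate 1 and in none of the other omissions of 1 library. The 19 collagen genes gave 0 calls in edgeR, with 2 at an unadjusted p under 0.05, and 1 call in DESeq2, higher. Their median was 0.32, and 0.05 without treated replicate 1.

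Further large falls were found in genes of low or moderate level. PF4V1 and CXCL6, chemokine genes that lie close together on chromosome 5, were at 10.6, 6.42, 7.93 and 9.16 CPM in the control libraries and 1.48, 1.73, 1.07 and 3.19 CPM in the treated libraries and at 16.96, 8.24, 11.2 and 12.9 CPM in the control libraries and 3.09, 1.94, 1.92 and 5.81 CPM in the treated libraries, respectively. Both fell (-2.20 ± 0.36, edgeR adjusted p = 0.0206 and -1.98 ± 0.41, edgeR adjusted p = 0.0397), and reads could be shared with near-identical chemokine genes. They were picked among genes without overlap between the groups. CHRNA4, a subunit of the neuronal nicotinic receptor, was at 5.80, 4.50, 5.10 and 5.02 CPM in the control libraries and 1.13, 1.65, 1.70 and 2.02 CPM in the treated libraries (-1.66 ± 0.23, edgeR adjusted p = 0.0160). CHAT, the enzyme that makes acetylcholine, was the 1 call among 6 tested motor neuron markers, at 1.45, 2.03, 1.59 and 1.07 CPM in the control libraries and 0.376, 0.269, 0.725 and 0.458 CPM in the treated libraries (-1.78 ± 0.39, edgeR adjusted p = 0.0478). It lies across the gene of the vesicular transporter SLC18A3, the counting did not use strand, and it passed in 4 of 21 alternative settings.

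Rises were fewer and smaller. CD5L (chromosome 1, 93882650 to 93893368), a protein secreted by macrophages, had the largest, from 1.24, 1.24, 2.60 and 5.65 CPM in the control libraries to 27.7, 13.9, 14.4 and 49.04 CPM in the treated libraries (3.48 ± 0.51, edgeR adjusted p = 0.0172). CD5L was picked among genes without overlap between the groups, and its treated values spread widely. The other macrophage markers did not pass, as given above, and the part of macrophage number in the CD5L result was not tested. CACNG5, an auxiliary subunit of glutamate receptors, was at 0.309, 0.175, 0.546 and 0.438 CPM in the control libraries and 1.38, 2.56, 2.17 and 1.38 CPM in the treated libraries, a low level throughout (2.41 ± 0.42, edgeR adjusted p = 0.0249). TREH, which splits the sugar trehalose, was at 0.760, 0.612, 0.572 and 1.14 CPM in the control libraries and 3.01, 3.02, 1.66 and 1.89 CPM in the treated libraries (1.59 ± 0.35, edgeR adjusted p = 0.0472). PLCH1, a phospholipase C of neurons, was at 10.3, 10.7, 6.92 and 6.38 CPM in the control libraries and 12.8, 21.4, 21.97 and 20.7 CPM in the treated libraries (1.19 ± 0.25, edgeR adjusted p = 0.0393), and its lowest treated value was that of treated replicate 1.

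The remaining members of the 10 largest rises were all below 3-fold. FSIP2 was at 4.85, 4.57, 5.51 and 4.41 CPM in the control libraries and 7.62, 13.6, 10.2 and 11.6 CPM in the treated libraries (1.16 ± 0.21, edgeR adjusted p = 0.0270). LRIG3, a membrane protein with leucine-rich repeats, was at 9.31, 7.47, 7.23 and 8.65 CPM in the control libraries and 21.1, 11.9, 14.6 and 15.1 CPM in the treated libraries (0.94 ± 0.20, edgeR adjusted p = 0.0421). FILIP1L (0.97 ± 0.20, edgeR adjusted p = 0.0403), the hyaluronan synthase HAS3 (0.81 ± 0.17, edgeR adjusted p = 0.0436), the engulfment adaptor GULP1 (0.75 ± 0.15, edgeR adjusted p = 0.0356) and ZNF888, a zinc finger gene with close paralogs (0.80 ± 0.10, edgeR adjusted p = 0.0154), completed the set. ZNF888 was at 27.9, 30.4, 30.2 and 26.1 CPM in the control libraries and 46.8, 55.8, 49.4 and 47.5 CPM in the treated libraries, with a small spread in both groups. Of these 10 rises, the number of 21 alternative settings in which they passed ran from 6 for HAS3 to 14 for ZNF888, with 13 for CD5L.

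**Figure D4:**
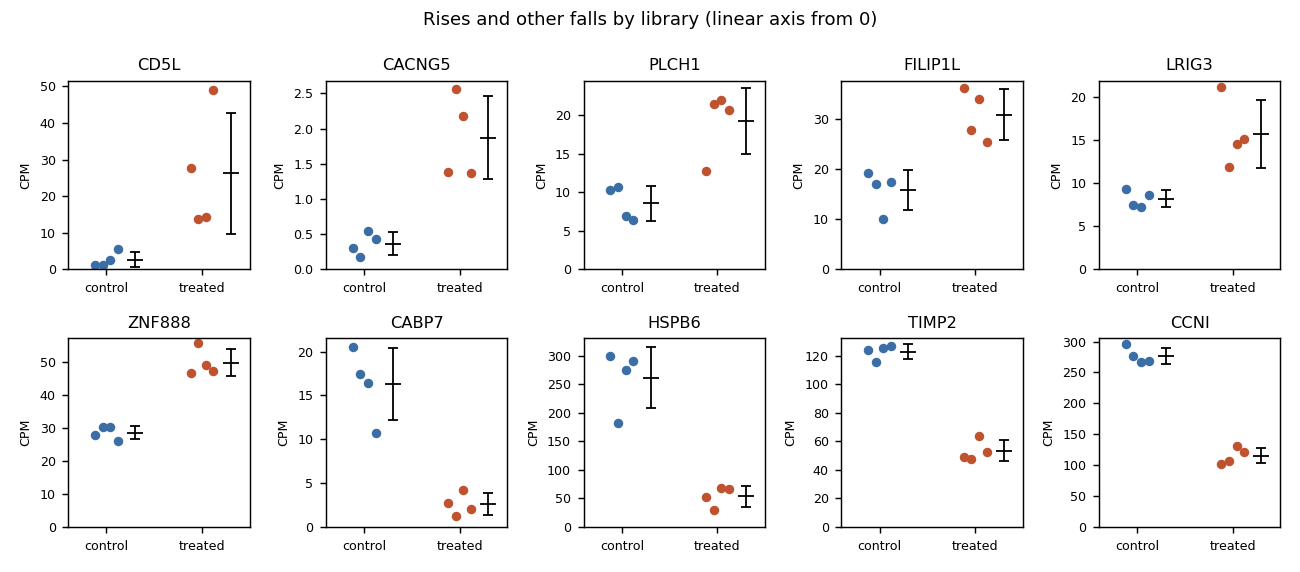
TMM-scaled CPM on linear axes from 0 for 6 genes that rose (CD5L, CACNG5, PLCH1, FILIP1L, LRIG3 and ZNF888) and 4 that fell (CABP7, HSPB6, TIMP2 and CCNI) in lumbar ganglia, with 1 point per library (control blue, treated red, 4 each) and bars for the group mean and SD. The groups do not overlap in any of the 10 panels, which for all but TIMP2 and CCNI was a condition of their choice. CD5L has the widest spread among treated libraries for its level.

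The treatment effect in lumbar ganglia was set beside that in cervical ganglia, which serve the arms and hold shorter axons, in a limma voom fit of all 16 ganglion libraries with animal as a random block. The same 4 control animals gave both regions, and 2 animals gave a treated library in both, so the effects of the regions share controls and part of the treated animals. In this fit 33 genes passed for lumbar and 19 for cervical ganglia, all of them lower. No gene of 14535 passed for a difference between the regions (0% of genes), with 2.77% at an unadjusted p under 0.05. An edgeR fit with animal as a fixed block also called 0, with 553 at an unadjusted p under 0.05.

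Side by side, NEFH had a log2 fold change of -2.46 ± 0.47 in lumbar and -2.01 ± 0.46 in cervical ganglia, and the difference of lumbar minus cervical was -0.45 ± 0.42, with an interval of 2 SE of -1.29 to 0.38. NEFL had -1.29 ± 0.28 and -0.92 ± 0.28, with an interval of the difference of -0.88 to 0.13. For MAP1B the values were -1.23 ± 0.19 and -1.09 ± 0.19, and both passed (limma adjusted p = 0.0233 and 0.0398). CCNI (-1.27 ± 0.15 and -1.42 ± 0.15, limma adjusted p = 0.00575 and 0.00148) and CADM3 (-1.26 ± 0.19 and -1.38 ± 0.19, limma adjusted p = 0.0223 and 0.00852) also passed in both regions. SPP1 passed in lumbar ganglia (-1.61 ± 0.31, limma adjusted p = 0.0472) and not in cervical ganglia (-1.15 ± 0.30, limma adjusted p = 0.151), and the interval of its difference was -1.01 to 0.10, which includes 0. CPLX1 had -0.99 ± 0.41 and -0.16 ± 0.41, and an interval of -1.58 to -0.08 before any adjustment. These intervals are wide, and a p that misses the threshold does not show that the regions respond alike.

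By list, the medians in the same fit were -1.25 in lumbar and -0.88 in cervical ganglia for neurofilaments, -0.77 and -0.63 for synaptic vesicle genes, and -0.70 and -0.64 for kinesins. For genes of large-diameter neurons they were -0.52 and 0.10, and for nociceptor genes -0.20 and -0.53. PVALB, of the large-diameter list, had -0.23 ± 0.49 in lumbar and 1.25 ± 0.50 in cervical ganglia, and an interval of the difference of -2.39 to -0.57 before any adjustment for the number of genes. The 5 genes with the smallest p for the difference were DRD3, RIPK4, AKAIN1, INHBB and RELT, each with a limma adjusted p of 1. Of these INHBB, a subunit of activin and inhibin, was at 14.6, 9.50, 9.41 and 10.1 CPM in the control libraries and 8.15, 4.42, 5.54 and 5.75 CPM in the treated libraries in lumbar ganglia, and RELT, of the tumour necrosis factor receptor family, at 24.9, 29.3, 22.5 and 23.4 CPM in the control libraries and 16.7, 9.13, 18.8 and 16.6 CPM in the treated libraries. RIPK4 was at most 1.25 CPM in all 8 lumbar libraries, AKAIN1 had a difference of -1.06 ± 0.25, and DRD3, a dopamine receptor, was too low to be tested in lumbar ganglia alone.

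**Figure D5:**
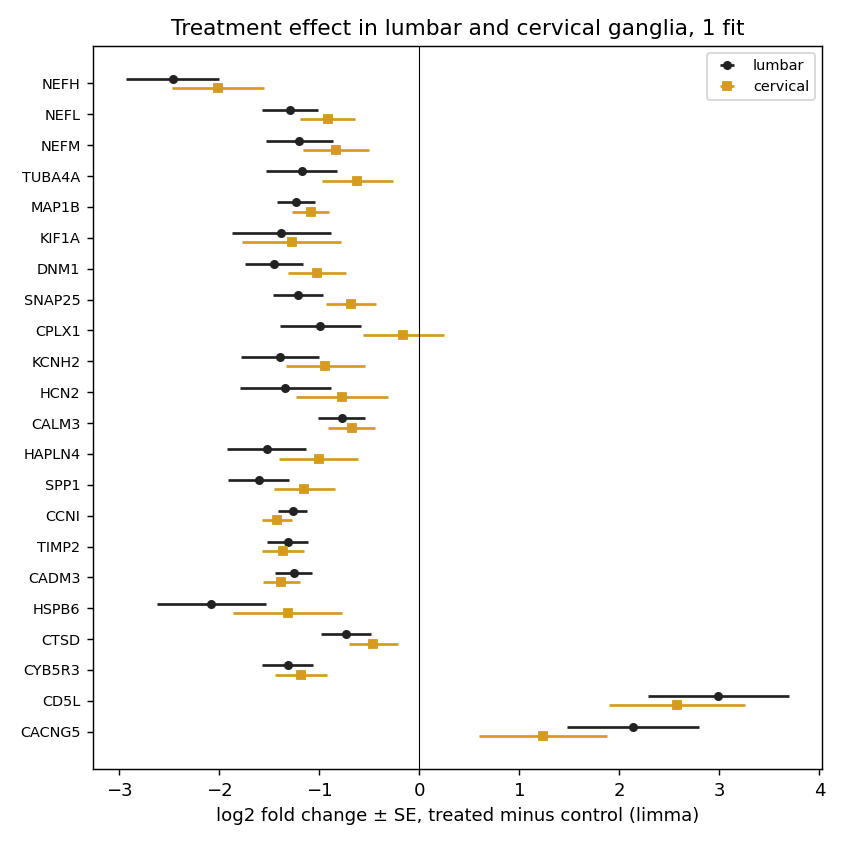
Log2 fold changes of treated minus control animals, as point and SE bar, for 22 named genes in lumbar (black circles) and cervical (yellow squares) ganglia from 1 limma fit of 16 libraries. NEFH has the lowest value in both regions, CD5L the highest, and no gene passed the test of the difference.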

How the data were processed

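Messenger RNA was read from 8 lumbar ganglion libraries, and 8 cervical ones for the comparison of regions. Per the labels, tissue kept in RNAlater gave stranded mRNA libraries, read as 50 bp pairs. The deposited table holds unnormalised counts for each gene name, made by the authors. Per the file headers, the authors counted with featureCounts 1.4.6-p1 on Ensembl release 94 of Macaca_fascicularis 5.0, setting neither pairs nor strand, so each mate counted as 1 read. Alignment used STAR 2.5.3a, per the submitters' processing notes. All coordinates are from the deposited table. Groups, sexes and animals are as labelled.

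The main test was the robust quasi-likelihood fit of edgeR 4.0.16 in R 4.3.3 on the 8 lumbar libraries, with TMM scaling, filterByExpr by group, sex as covariate and Benjamini-Hochberg adjustment over 14267 genes. Regions were compared in limma 3.58.1 (voom, statmod 1.5.0, consensus correlation of libraries of 1 animal 0.69). Log2 fold changes are given ± SE, and p is two-sided. In simulated data for the lumbar comparison of 14108 genes, edgeR recovered 58% of 100 genes changed 2-fold and 81% of 100 changed 4-fold, with 11 false calls. DESeq2 recovered 75% and 89% with 60 false calls, and limma voom 56% and 83% with 15. For the difference between regions, on 14421 genes, the recovery was 4% and 63%. The simulated libraries were drawn independently, with no animal or sex effect and with as many rises as falls. Recovery and false calls in the real libraries can therefore differ from these values.

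DESeq2 1.42.0, limma voom, other scalings, filters and covariates, fits with more libraries and the omission of each library were alternatives. Total counts, total counts with the replicate block, and the omission of libraries with over 400 CPM of muscle markers were added after seeing the data. Named genes are the 10 largest rises and falls among called genes of at least 1 mean CPM without overlap, up to 4 members of each list with the smallest p, 24 core genes and the 5 smallest p of the regional difference. Further list members are named with values only, and some genes that this rule names are not reported here. The members and gene lists were chosen with earlier results of these data known, so no test was made over a list.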

Additional observations from a re-analysis of the deposited data

Results flagged for a closer look

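In 284 groups of 4 libraries (genes named in the text and marker sums), 16 held a value set apart from the other 3, where chance gives about 14.2. Treated replicate 1 was the library concerned in 5 of them. It was low for PLCH1 (12.8 CPM, the next 20.7) and RBFOX3 (8.03 CPM, the next 19.2). It was high for S100B (556 CPM, the next 332), the summed central myelin markers (331 CPM, the next 101) and the summed astrocyte markers (955 CPM, the next 592). The astrocyte list includes S100B, so those flags overlap. Of the central myelin markers, MOG was at most 0.664 CPM in all lumbar libraries.

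Among control libraries, replicate 1 was high for NEFH (6538 CPM, the next 3813) and INHBB (14.6 CPM, the next 10.1). Control replicate 2 was low for HCN2 (27.9 CPM, the next 39.3), AP2A1 (150.2 CPM, the next 175) and FTH1 (671 CPM, the next 912). Control replicate 4 was high for TYROBP (21.6 CPM, the next 12.8), the summed macrophage markers (2176 CPM, the next 1354) and the summed lymphocyte markers (102 CPM, the next 64.5). In the treated group, replicate 4 was low for ZCCHC14 (30.1 CPM, the next 37.1) and high for the summed mast cell markers (89.2 CPM, the next 72.3), and replicate 2 was low for the summed adipocyte markers (1203 CPM, the next 2035).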

How the results depend on the processing

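The 612 lumbar calls became 1738 with DESeq2, 75 in 1 edgeR fit of the 16 ganglion libraries, 64 in 1 edgeR fit of all 48 libraries, 33 in limma with animal as random block, 1843 with total counts in place of TMM and 0 without the muscle-bearing libraries (1976 at an unadjusted p under 0.05). Leaving out 1 library at a time gave 18 to 670. The calls stayed within 1.5 times of 612 with limma voom (593), median-ratio factors (635), no filter (560), a minimum of 1 CPM (659) and no sex term (731). The 521 genes called lower stayed negative and the 91 called higher positive in the 21 alternatives, wherever they were tested. These genes were chosen by their p in the same libraries, so their kept sign is no separate support. The replicate block, with the replicate number in place of sex, gave 206 calls, and 1 with total counts as well. The labels give the numbers no shared animal, and same-numbered deviations from the group means correlated at 0.0648, 0.077, 0.0112 and -0.161, so the numbers were not taken as pairs. The difference between regions stayed at 0 calls in all 11 alternatives, with 70 to 571 genes at an unadjusted p under 0.05.

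Sign changed in genes that did not pass. With total counts the log2 fold change was 0.11 for INA, 0.15 for GAP43, 0.16 for NTRK3, 0.14 for PMP22 and 0.18 for HMGCS1, and with the block as well 0.11 for GAP43, 0.12 for NTRK3, 0.15 for PMP22 and 0.18 for HMGCS1. In the limma animal block fit it was 0.087 for GAL, 0.012 for GAP43 and 0.056 for PMP22, and in the 16-library edgeR fit 0.0086 for HMGCS1. Without the muscle-bearing libraries it was 0.072 for TRPV1, -0.030 for FABP7 and 0.016 for PMP22. Over the omission of single libraries it ran from -0.51 to 0.15 for INA, -0.58 to 0.15 for SOX11, -0.67 to 0.12 for GAL, -0.31 to 0.14 for GAP43, -0.52 to 0.053 for TRPV1, -0.28 to 0.16 for NTRK3, -0.20 to 0.080 for PMP22, -0.0092 to 0.46 for CD68 and -0.086 to 0.10 for HMGCS1. The cause was not tested. Precision is limited by 4 libraries a group and by counting error in low genes.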

Other observations

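Several gene groups not described above gave no call. In 21 immediate early genes, which neurons switch on after activity or injury, edgeR, DESeq2 and limma voom called 0. At an unadjusted p under 0.05 stood 1, NR4A3, a nuclear receptor (0.86 ± 0.34, edgeR adjusted p = 0.185). The mean log2 CPM of the 21 genes was 4.52 in treated replicate 1. It was 3.54 to 3.58 in the other treated libraries and 3.37 to 3.99 in the control libraries. The 19 inflammation and acute phase genes also gave 0 calls in all 3 tools, with 3 at an unadjusted p under 0.05. They were the chemokine CCL2 (0.53 ± 0.19, edgeR adjusted p = 0.156), TNFAIP3, an inhibitor of NF-kB signalling (0.51 ± 0.20, edgeR adjusted p = 0.178), and NFKBIA, another such inhibitor (0.33 ± 0.13, edgeR adjusted p = 0.192). The mean log2 CPM of the 19 genes was 3.39 in treated replicate 1. It was 2.38 to 2.75 in the other treated libraries and 2.68 to 2.84 in the control libraries. Of 23 cell cycle genes edgeR and voom called 0 and DESeq2 called 1, lower, and 1 stood at an unadjusted p under 0.05, the cyclin CCNB1 (-0.51 ± 0.16, edgeR adjusted p = 0.123). The 21 lymphocyte markers gave 0 calls in all 3 tools and 0 at an unadjusted p under 0.05. Of 7 mast cell markers edgeR and voom called 0 and DESeq2 called 1, lower, and 1 stood at an unadjusted p under 0.05, KIT, the receptor for stem cell factor (-0.53 ± 0.16, edgeR adjusted p = 0.108).

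HOX genes record a ganglion's position along the body. The 15 anterior HOX genes had a median log2 fold change of 0.26 and the 9 posterior ones of -0.09, with 0 calls in all 3 tools and 2 and 0 at an unadjusted p under 0.05. Those 2 were HOXB3 (0.53 ± 0.18, edgeR adjusted p = 0.132) and HOXB8 (-0.41 ± 0.14, edgeR adjusted p = 0.137). Markers of neighbouring tissue gave 0 calls in all 3 tools and 0 at an unadjusted p under 0.05. Their median log2 fold change was -1.77 over 15 skeletal muscle genes, -1.46 over 6 red blood cell genes, -0.06 over 9 adipocyte genes, 0.24 over 6 central myelin genes and 0.05 over 10 astrocyte genes.

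Genes called in either direction differed from all tested genes in median length and level. The median summed exon length was 2957 bases over the 14267 tested genes, 3164 bases over the 521 lower and 5609 bases over the 91 higher genes. The median span on the genome was 30.1 kb, 31.9 kb and 74.1 kb in the same order. The median level in control ganglia was 21.7 CPM, 155 CPM and 29.5 CPM. The part of level and length in the calls was not tested. Of 381 tested genes with names starting in ZNF, the stem of many zinc finger genes, 325 had a positive log2 fold change, 6 were called higher and 0 lower by edgeR, with a median of 0.23. Called higher were 1.57% of these and 0.638% of all genes tested. Of the 14267 genes 8039 had a positive log2 fold change. Over the 20 autosomes and the X chromosome the share of tested genes called lower ran from 2.1% on chromosome 2 to 5.3% on chromosome 10.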
